A study of Mus musculus with 5 samples.

Results

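The 37 genes described here encode the machinery that carries nascent secretory and membrane proteins into the endoplasmic reticulum (ER), glycosylates them and folds them. They were chosen by name, as listed genes of signal recognition (7), the Sec61 translocon (9), signal peptidase (5), oligosaccharyl transferase (7) and the ER chaperones (9), and make up 37 of the 55385 genes in the count tables. The libraries come from Surface-seq, in which plasma membrane of EL4 cells, a mouse T-lymphoma line, is wrapped around polymer cores to give membrane-coated nanoparticles whose RNA is sequenced. In the 3 variation A libraries (A1, A2, A3), RNA was taken from the nanoparticles with phenol and chloroform, and a library was built after repair of the RNA ends. In the 2 variation B libraries (B1, B2), the 3′ adaptor was ligated to RNA on intact nanoparticles before any RNA was purified, with no end repair described. The paper states that centrifugation of the homogenate removes organelles, the ER and mitochondria among them, before the nanoparticles are made. How complete this was in these libraries was not tested, and RNA of the mitochondrial genome was counted in every library, as given below. The sources used here do not say that libraries came from separate cultures, so p-values measure only the spread between these libraries, which may be technical.

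Signal recognition particle, a complex of proteins and a small RNA, binds a signal peptide as it leaves the ribosome and brings the ribosome to its receptor on the ER membrane. The Sec61 channel then passes the chain into the lumen, where signal peptidase removes the signal peptide, oligosaccharyl transferase attaches glycans to asparagines, and chaperones and disulfide isomerases fold the product. The mRNAs of most of these proteins are themselves translated on ER-bound ribosomes, because their products are ER membrane or lumenal proteins. In T cells this route makes the antigen receptor chains and other surface proteins.

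Library totals were 2301017, 4502174 and 1187117 counts (A1, A2, A3) and 21862003 and 22980172 counts (B1, B2), so that 3 counts, the upper limit of a count of 0, equal 1.304, 0.666 and 2.53 CPM of the library total (A1, A2, A3) and 0.137 and 0.131 CPM (B1, B2). Ribosomal RNA took 51.4, 54.1 and 53.99% (A1, A2, A3) against 24.3 and 25.6% (B1, B2). A1 stood apart from A2 and A3 in small nuclear RNA, with 0.847, 12.1 and 13.1% (A1, A2, A3) against 1.18 and 0.632% (B1, B2), and in the mitochondrial genome, with 1.49, 0.122 and 0.138% (A1, A2, A3) against 2.05 and 2.04% (B1, B2). Both shares of A1 lay nearer to variation B than to A2 and A3. What this difference adds to the results below was not tested.

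The T-cell label held in every library. Of 10 T-cell markers, 10 had a count in at least 1 library, and their summed level was 683, 401 and 378 CPM (A1, A2, A3) against 1941 and 1914 CPM (B1, B2). Thy1 was the most abundant T-cell marker per kilobase, with 216, 189.7 and 168 CPM (A1, A2, A3) against 611 and 637 CPM (B1, B2). Summed over 5 genes, B-cell markers stood at 0.869, 1.11 and 0 CPM (A1, A2, A3) against 0.6404 and 0.609 CPM (B1, B2), with Ms4a1 at 0 in all 5 libraries and Cd79a the highest per kilobase over the 5 libraries, by 10 counts in B1 alone. Myeloid markers, also 5 genes, summed to 0, 2.67 and 1.69 CPM (A1, A2, A3) against 4.53 and 5.79 CPM (B1, B2), with Adgre1 at 0 throughout and Lyz2 the highest over the 5 libraries. Lyz2 had 0 counts in every variation A library and 73 and 133 counts in B1 and B2. Against a floor of 3 counts per variation A library, Lyz2 is at least 1.32-fold higher per library total, but by TMM the same bound is 0.401, which does not place it higher, although edgeR called it so. Of the 9 T-cell markers tested, Cd3g and Cd3e were called higher and Trbc2 lower by TMM, beside 11% and 12.4% of all genes tested. Under library totals the log2 fold change of Trbc2 turned to 0.28. It had 30.4, 19.1 and 13.5 CPM (A1, A2, A3) against 26.7 and 24.8 CPM (B1, B2), where the groups overlapped. The Trbc2 call ended without any 1 of the 5 libraries, that of Cd3g without B1 or B2, and those of Cd3e and Lyz2 without A2, A3, B1 or B2. Of 5 erythroid markers, 4 were at 0 in every library and Hba-a1 had 6 counts in B1 alone.

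Together the 37 mRNAs held 0.326, 0.142 and 0.133% (A1, A2, A3) against 0.968 and 0.959% (B1, B2) of all counts. The Wilson 95% intervals, which cover counting error only, ran from 0.319 to 0.334% in A1, from 0.139 to 0.146% in A2, from 0.127 to 0.140% in A3, from 0.964 to 0.972% in B1 and from 0.955 to 0.963% in B2. Both variation B libraries were above all 3 variation A libraries, with means of 0.201 ± 0.109% (SD, n = 3) and 0.964 ± 0.00676% (SD, n = 2), a ratio of 4.803, and of 6.99 when A1 was left out of the variation A mean. The denominator holds ribosomal RNA, and as a share of protein-coding counts the members had 0.829, 0.629 and 0.606% (A1, A2, A3) against 1.52 and 1.49% (B1, B2), a ratio of means of 2.19, and of 2.43 without A1. Without Stt3a, the remaining 36 members held 0.803, 0.614 and 0.593% (A1, A2, A3) against 1.14 and 1.12% (B1, B2) of protein-coding counts, a ratio of 1.69, and of 1.88 without A1. No test was run on these shares. In this bulk material, a change in how many nanoparticles or cells carried an mRNA and a change in how much each carried cannot be told apart.

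**Figure D1:**
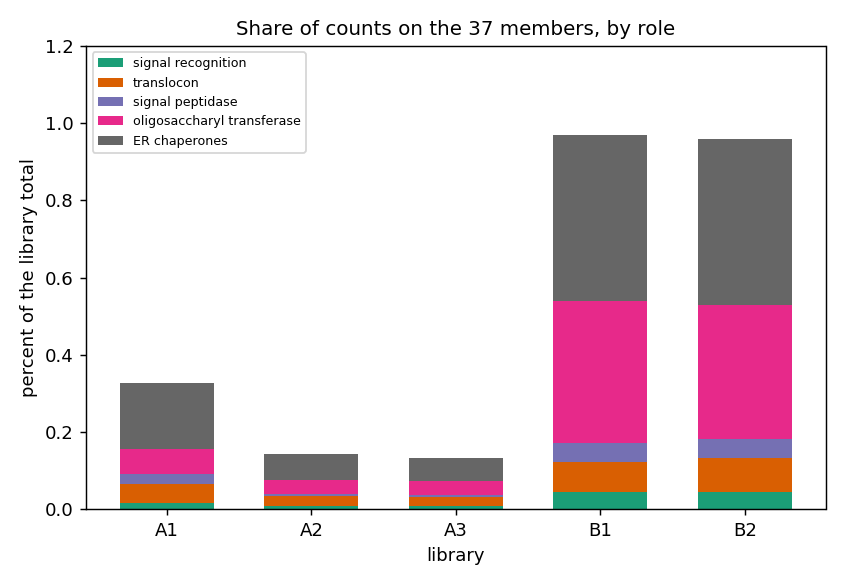
Percent of each library's total count that fell on the 37 members, stacked by role, in the 3 variation A libraries (A1, A2, A3) and the 2 variation B libraries (B1, B2). The full bars reach 0.326% in A1 and 0.968% in B1, and the oligosaccharyl transferase and chaperone layers make up most of each variation B bar.

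The plot of shares by role shows how unevenly the members contributed. Of all member counts, oligosaccharyl transferase took 20.3, 24.6 and 26.6% (A1, A2, A3) against 38.1 and 36.3% (B1, B2), while translocon genes took 15.2, 18.1 and 18.1% (A1, A2, A3) against 8.11 and 9.01% (B1, B2). The first was higher in both variation B libraries than in any variation A library, and the second lower. Without Stt3a in the role and the members, a comparison chosen after seeing the data, oligosaccharyl transferase took 17.7, 22.7 and 24.98% (A1, A2, A3) against 17.5 and 15.9% (B1, B2), so that variation B was no longer higher, with B1 just under A1 and both variation B libraries under A2 and A3. Chaperone mRNAs, the largest layer, took 52.02, 47.3 and 45.1% (A1, A2, A3) against 44.3 and 44.8% (B1, B2) of member counts, and there B1 and B2 lay just under A3. Without Stt3a among the members, a choice made after seeing the data, chaperones took 53.7, 48.5 and 46.1% (A1, A2, A3) against 59.1 and 59.2% (B1, B2), so that both variation B libraries were above all 3 variation A libraries, while the translocon share, at 15.7, 18.6 and 18.5% (A1, A2, A3) against 10.8 and 11.9% (B1, B2), stayed lower in variation B. Stt3a alone held 3.08, 2.45 and 2.09% (A1, A2, A3) against 24.97 and 24.2% (B1, B2) of member counts, far more in each variation B library than in any variation A library.

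Every member was scored against the whole table. At least 10 counts were reached in all 5 libraries by 28 of 37 members, and in A3, the smallest library, the median member had 24 counts against 2071 in B1. Variation B was compared with variation A across the 10287 genes that passed a filter on low counts (edgeR with TMM scaling, which sets library sizes so that the bulk of genes does not change). That filter kept 35 members and dropped Srp54a and Sec61g. A call required more than a 2-fold change at an adjusted p below 0.05. With these thresholds 7 of the 35 members tested were called higher in variation B, beside 11% of all genes tested (1135), and 2 were called lower, beside 12.4% (1276). The median log2 fold change was 0.47 over the members tested and 0.05 over all genes tested. Without a filter on low counts it was 0.51 over 37 members and 0.46 over 25327 genes. The gap nearly closed there, over a wider set that takes in genes with very low counts. With at least 10 counts in every library it was 0.47 over 28 members and −0.02 over 4599 genes. On TMM-scaled CPM, both variation B libraries were above all variation A libraries for 14 of the 35 (31.2% of all genes tested) and below them for 7 (26.7%). Leaving out A1, A2, A3, B1 and B2 in turn left 16, 2, 3, 2 and 2 members called higher and 2, 0, 0, 0 and 0 called lower, with member medians of 0.94, 0.12, 0.45, 0.38 and 0.35 beside 0.16, 0.07, 0.04, 0.05 and 0.06 over all genes tested. The gap to all genes was widest without A1 and nearly closed without A2. The called members are Stt3a, Srp14, Hsp90b1, Sec62, P4hb, Calr and Sec63 on the higher side and Dad1 and Srp68 on the lower side.

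**Figure D2:**
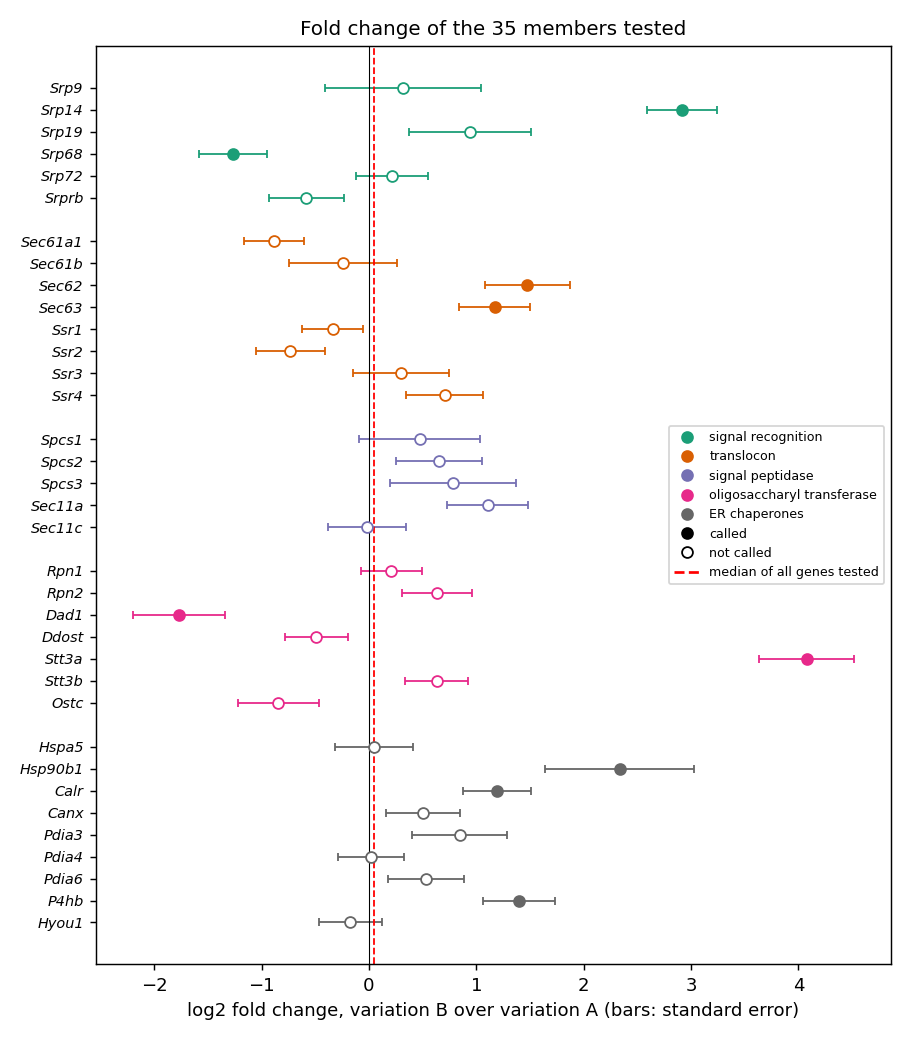
Log2 fold change of variation B over variation A for the 35 members tested, in role order, with approximate standard errors as bars and filled marks for called members. The dashed line is the median of all genes tested, 0.05, and Stt3a at 4.08 and Dad1 at −1.77 are the extremes.

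Direction depended on the scaling. When library totals replaced TMM, the log2 fold change at the median of all genes tested moved to 1.50, 5668 genes were called higher and 301 lower (55.1% and 2.93% of 10287), and higher calls went from 47.1% to 94.96% of all calls. On that scale 21 members were called higher, the 7 above and 14 more, and by edgeR's quasi-likelihood test 0 were called lower, with 0 lower at an unadjusted p under 0.05. CPM of the library total was above all variation A libraries in both variation B libraries for 31 of the 35 members tested, beside 75% of all genes tested. Upper-quartile factors moved the median of all genes to −0.08. A scaling moves all genes nearly alike, so values taken relative to the median of all genes hardly differ between scalings by construction and say nothing on which scaling holds. Higher and lower below mean relative to the bulk of genes, and the values in CPM are shares of the library total.

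How many members passed also changed when a library was left out. Each such fit holds 1 library fewer, and what that alone does to the calls was not tested. Without A1, 16 of 37 members were called higher, beside 20.8% of 12127 genes tested, and 2 lower, beside 15%. These were the same 7 higher and 2 lower members plus Srp19, Ssr3, Spcs1, Spcs2, Spcs3, Sec11a, Rpn2, Pdia3 and Pdia6, whose log2 fold changes without A1 ran from 1.00 to 1.98. Without A2, 2 members were called higher (background 3.46%), without A3 3 (3.57%), without B1 2 (1.92%) and without B2 2 (1.55%). Stt3a and Srp14 were higher in each of these 4 fits, joined by Sec62 without A3. Lower calls numbered 0 in these 4 edgeR fits, beside backgrounds of 3.64%, 3.86%, 2.3% and 1.32% for A2, A3, B1 and B2, while 3, 3, 2 and 1 members were lower at an unadjusted p under 0.05. Fits that leave out a variation B library assume that the lone one left varies as variation A does.

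Of the 7 signal recognition genes, 1 was called higher (beside 11% of all genes tested), 1 lower (beside 12.4%) and 4 neither, and Srp54a was not tested. Srp14 encodes the protein that pairs with SRP9 on the Alu end of the particle's RNA, the end that slows elongation (ENSMUSG00000009549.14, chr2:118475850-118479711, minus strand, GRCm38). Its mRNA had 10.9, 11.3 and 12.6 CPM (A1, A2, A3) against 249.7 and 247 CPM (B1, B2). TMM-scaled, it had 12.4, 19.8 and 22.2 CPM (A1, A2, A3) against 133 and 134 CPM (B1, B2), and on either scale both variation B libraries were far above all 3 variation A libraries (log2 fold change 2.92 ± 0.33 (SE), adjusted p = 0.00146 by edgeR's quasi-likelihood test, Benjamini-Hochberg). Over the alternatives Srp14 was called higher in 19 of 19 settings, and the log2 fold change ran from 2.81 to 3.11 over the 5 fits that each left out 1 library. The setting that calls by adjusted p alone reuses the main fit, so it could not end the call. Per kilobase of exon Srp14 averaged 9.71 CPM per kilobase in variation A, under Srp68 at 13.8, and 208 in variation B, the highest of its role there.

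Srp68 encodes a subunit of the particle's other end, which holds SRP72 and SRP54 (ENSMUSG00000020780.15, chr11:116245166-116274217, minus strand, GRCm38). It had 56.9, 29.1 and 26.96 CPM (A1, A2, A3) against 50.3 and 34.4 CPM (B1, B2), where the groups overlapped, and 64.97, 50.95 and 47.4 TMM-scaled CPM (A1, A2, A3) against 26.8 and 18.7 TMM-scaled CPM (B1, B2), where both variation B libraries were below all variation A libraries. Srp68 was called lower (log2 fold change −1.27 ± 0.32 (SE), adjusted p = 0.0255 by edgeR's quasi-likelihood test, Benjamini-Hochberg), but under library totals its log2 fold change was 0.17, which is −1.33 relative to the median of all genes. The call of Srp68 ended without A2, A3, B1 or B2, with log2 fold changes of −1.26, −1.29, −1.56 and −1.04 and adjusted p values of 0.07698, 0.0737, 0.116 and 0.254 by edgeR's quasi-likelihood test, Benjamini-Hochberg, and over all 19 alternatives its adjusted p ran from 0.003102 to 0.754. The call also ended with library totals, without a filter on low counts (log2 fold change −1.06) and once a trend with gene length was removed (−1.01), where the fold stayed above 2 but the adjusted p did not pass, and in a test against a fold change of 1.5.

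Srp19, which helps SRP54 load onto the RNA, was among the members with the largest change short of a call, with 6.08, 1.78 and 0.842 CPM (A1, A2, A3) against 11.9 and 18.3 CPM (B1, B2). A1 was the highest of variation A and both variation B libraries were higher still per library total, but on the TMM scale A1 and B1 overlapped (log2 fold change 0.94 ± 0.57 (SE), adjusted p = 0.242 by edgeR's quasi-likelihood test, Benjamini-Hochberg), and without A1 it was called higher, at a log2 fold change of 1.72. Srp54a, with the lowest mean of its role group per kilobase, though Srp9 was lower in A2 and Srp19 in A3, encodes the GTPase that binds signal peptides. It had 5, 7 and 2 counts (A1, A2, A3) against 39 and 0 (B1, B2), and 80.9% of its transcript is nearly identical to Srp54b or Srp54c, so that reads with several alignments, which the counting left out, make its level uncertain. The other members of the role, Srp9, Srp72 and the receptor subunit Srprb, had log2 fold changes from −0.58 to 0.32.

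The partners of Srp14 and Srp68, Srp9 and Srp72, were looked up after their values were known. Srp9 had 5.21, 0.444 and 2.53 CPM (A1, A2, A3) against 8.42 and 7.66 CPM (B1, B2) and a log2 fold change of 0.32 ± 0.72 against 2.92 ± 0.33 for Srp14, and 1.39 without A1 and −0.26 without A2. Srp72 had 55.2, 20.4 and 20.2 CPM (A1, A2, A3) against 94.7 and 99.9 CPM (B1, B2) and a log2 fold change of 0.21 ± 0.33 against −1.27 ± 0.32 for Srp68, and 0.67 without A1. The differences between partners were not tested. At 2 and 3 counts in A2 and A3, Srp9 is too shallow there for a firm ratio, and 14.1% of its exon bases lie under another gene on the other strand.

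The particle's RNA was also searched for. Of 3 SRP RNA symbols, 2 were in the tables, and both were called lower in variation B, beside 12.4% of all genes tested. Rn7s1 had 5, 13 and 26 counts (A1, A2, A3) against 9 and 20 (B1, B2), and Rn7s2 had 0, 15 and 4 against 5 and 2. These are near-identical copies, and reads with several alignments were not counted, so these few counts are not a measure of the RNA. Both calls ended without A3, B1 or B2, and that of Rn7s2 also without A2.

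Of the 9 translocon genes 8 were tested, and 2 were called higher (beside 11% of all genes tested) and 0 lower (beside 12.4%) by edgeR, with 1 lower at an unadjusted p under 0.05, and a median log2 fold change of 0.03 beside 0.05 for all genes. The called pair encodes the membrane proteins that join the Sec61 channel in posttranslational and assisted import. Sec62 (ENSMUSG00000027706.8, chr3:30792875-30821263, plus strand, GRCm38) had 5.21, 2.89 and 5.897 CPM (A1, A2, A3) against 36.04 and 30.8 CPM (B1, B2), and Sec63, whose J domain recruits the lumenal Hsp70 (ENSMUSG00000019802.13, chr10:42761496-42832514, plus strand, GRCm38), had 15.2, 8.88 and 5.897 CPM (A1, A2, A3) against 53.9 and 71.1 CPM (B1, B2). For both, each variation B library was above all variation A libraries on either scale. Sec62 had a log2 fold change of 1.48 ± 0.39 (SE), adjusted p = 0.0304 by edgeR's quasi-likelihood test, Benjamini-Hochberg. Sec63 had a log2 fold change of 1.17 ± 0.33 (SE), adjusted p = 0.0368 by edgeR's quasi-likelihood test, Benjamini-Hochberg. The call of Sec62 ended without A2, B1 or B2, with log2 fold changes of 1.33, 1.33 and 1.53 and adjusted p values of 0.117, 0.196 and 0.174 by edgeR's quasi-likelihood test, Benjamini-Hochberg, and over all 18 alternatives its adjusted p ran from 0.00527 to 0.196. The call of Sec63 ended without A2, A3, B1 or B2, with log2 fold changes of 1.26, 1.10, 1.37 and 0.95 and adjusted p values of 0.101, 0.109, 0.133 and 0.294 by edgeR's quasi-likelihood test, Benjamini-Hochberg, and over all 18 alternatives its adjusted p ran from 0.002604 to 0.294. At equal depth, with every library brought to 1187117 total counts, both calls ended, with log2 fold changes of 0.87 and 1.15. This matched total counts only. Protein-coding counts were 39.4, 22.6 and 22% (A1, A2, A3) against 63.65 and 64.57% (B1, B2) of the full libraries. Both calls also ended in a test against a fold change of 1.5. The Sec63 call ended when a trend with gene length was removed (0.97) and with a block on replicate number (1.02). Variation A held only 12, 13 and 7 counts of Sec62, and 11.7% of its exon bases lie under a gene on the other strand.

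Sec61a1, which encodes the pore-forming subunit, had 127, 92.8 and 101 CPM (A1, A2, A3) against 165 and 159.5 CPM (B1, B2), so that both variation B libraries were above variation A on the library total. Scaled by TMM it had 145, 163 and 178 TMM-scaled CPM (A1, A2, A3) against 87.9 and 86.8 TMM-scaled CPM (B1, B2), and there both variation B libraries were below all 3 variation A libraries. Its log2 fold change of −0.89 ± 0.28 (SE), adjusted p = 0.0519 by edgeR's quasi-likelihood test, Benjamini-Hochberg, missed the threshold, and with upper-quartile factors alone among the alternatives it was called lower, at −1.02. Over all 19 alternatives its adjusted p ran from 0.00151 to 0.329. Sec61g had the lowest mean of the translocon genes per kilobase, though Sec62 was lower in A2. It had 5, 8 and 1 counts (A1, A2, A3) against 38 and 0 (B1, B2), and 55.7% of its transcript has a near-identical copy elsewhere. For Sec61b that share is 82.6%, and the levels of both small subunits are uncertain.

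The 4 subunits of the translocon-associated protein complex were not called. Ssr3 had the highest mean of the translocon genes over the 5 libraries, 51.8 CPM per kilobase, though Ssr2 was higher in A2 and Sec61a1 in A3. It had 235, 59.1 and 59.8 CPM (A1, A2, A3) against 342 and 385 CPM (B1, B2). On the TMM scale A1 was above both variation B libraries and A2 and A3 below them, and the log2 fold change was 0.30 ± 0.45 with all libraries and 1.03 without A1, where it was called higher. Together with Sec61b, the subunits Ssr1, Ssr2 and Ssr4 had log2 fold changes from −0.73 to 0.71, 1 above 0 and 3 below, and Sec61b was at 0.46 without A1.

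All 5 signal peptidase genes were tested and 0 were called by edgeR, beside 11% of all genes tested called higher and 12.4% lower, against 1 higher and 0 lower at an unadjusted p under 0.05. Their median log2 fold change was 0.65 beside 0.05 for all genes. DESeq2 called 0 of them as well, and over all roles it called 7 members higher and 2 lower, the same genes as edgeR, beside 11.7% and 15.03% of all genes tested. Sec11a, a catalytic subunit, came closest. It had 34.3, 10.2 and 10.9 CPM (A1, A2, A3) against 101 and 106 CPM (B1, B2), and both variation B libraries were above all variation A libraries on either scale (log2 fold change 1.10 ± 0.38 (SE), adjusted p = 0.0648 by edgeR's quasi-likelihood test, Benjamini-Hochberg). It was called higher without A1 (log2 fold change 1.72), at equal depth in total counts (1.25), with library totals, and with a filter of at least 10 counts in every library. Its adjusted p over 19 alternatives ran from 8.29e-05 to 0.289, and 8.21% of its exon bases are shared with other genes.

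Spcs3, a noncatalytic subunit and the most abundant of the complex at 34.4 CPM per kilobase, had 121, 18.9 and 17.7 CPM (A1, A2, A3) against 216 and 224 CPM (B1, B2). A1 was far above A2 and A3, and on the TMM scale also above both variation B libraries, and the log2 fold change of 0.79 ± 0.59 became 1.98 without A1, where it was called higher. Sec11c, the alternative catalytic subunit, had the lowest mean of the complex per kilobase over the 5 libraries, though Spcs1 was lower in variation A. It had 48.2, 16.9 and 16.01 CPM (A1, A2, A3) against 76.3 and 63.8 CPM (B1, B2) and a log2 fold change of −0.02 ± 0.36, or 0.49 without A1. Spcs1 and Spcs2 were at 0.47 and 0.65, and each was called higher without A1.

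Among the 35 members tested, oligosaccharyl transferase held the strongest in each direction. Srp54a and Sec61g, not tested there, were at −2.27 and −2.19 without a filter on low counts, where Dad1 was at −1.55. Stt3a encodes the catalytic subunit of the form that sits at the translocon and glycosylates chains as they enter (ENSMUSG00000032116.18, chr9:36729344-36767679, minus strand, GRCm38, 18 exon blocks). It had 231, 157 and 33 counts (A1, A2, A3) against 52847 and 53423 (B1, B2), which is 100.4, 34.9 and 27.8 CPM (A1, A2, A3) against 2417 and 2325 CPM (B1, B2). A1 was the highest of variation A, and both variation B libraries were above it by more than an order of magnitude on the library total. On the TMM scale the values were 115, 61.1 and 48.9 TMM-scaled CPM (A1, A2, A3) against 1290 and 1264 TMM-scaled CPM (B1, B2), and the groups stayed apart (log2 fold change 4.08 ± 0.44 (SE), adjusted p = 0.00131 by edgeR's quasi-likelihood test, Benjamini-Hochberg). The fold change was 16.9 by TMM. Stt3a was called higher in 19 of 19 alternatives, with log2 fold changes from 3.75 to 5.45, and relative to the median of all genes it stood at 4.03 with TMM and 3.94 with library totals. As for Srp14, the setting that calls by adjusted p alone could not end the call. No other annotated exon overlaps those of Stt3a, and no near-identical copy was found.

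Stt3b, the paralog that serves sites the other form skips, is set beside it here after its values were seen. It had 62.6, 25.8 and 35.4 CPM (A1, A2, A3) against 172 and 169 CPM (B1, B2) and a log2 fold change of 0.63 ± 0.30, short of a call. Per kilobase of exon length the level of Stt3a was 0.757, 0.638 and 0.371 (A1, A2, A3) and 6.62 and 6.49 (B1, B2) times that of Stt3b. Exon length here covers all annotated isoforms, 8948 bases for Stt3a and 4221 for Stt3b. By the length of the longest coding transcript, chosen after seeing the data, the ratio was 1.15, 0.974 and 0.565 (A1, A2, A3) and 10.1 and 9.898 (B1, B2). Which paralog was higher in A1 therefore turns with the length used, whereas Stt3a was the higher in both variation B libraries by either length, and neither ratio depends on how libraries are scaled. Stt3a averaged 6.07 CPM per kilobase in variation A and 265 in variation B, where it was the highest member.

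Dad1, a small membrane subunit needed for a stable complex (ENSMUSG00000022174.8, chr14:54235479-54254104, minus strand, GRCm38), had 33.5, 58.4 and 48.9 CPM (A1, A2, A3) against 42.1 and 39.7 CPM (B1, B2), where the groups overlapped, since A1 lay below both variation B libraries. After TMM scaling it had 38.2, 102 and 85.9 TMM-scaled CPM (A1, A2, A3) against 22.4 and 21.6 TMM-scaled CPM (B1, B2), and both variation B libraries were below all variation A libraries (log2 fold change −1.77 ± 0.43 (SE), adjusted p = 0.0226 by edgeR's quasi-likelihood test, Benjamini-Hochberg). Under library totals its log2 fold change was −0.20 and not called, which is −1.70 relative to the median of all genes. The call of Dad1 ended without A2, A3, B1 or B2, with log2 fold changes of −1.37, −1.61, −1.81 and −1.75 and adjusted p values of 0.0869, 0.0819, 0.141 and 0.174 by edgeR's quasi-likelihood test, Benjamini-Hochberg, and over all 19 alternatives its adjusted p ran from 7.59e-06 to 0.645. Ostc, which links the translocon-bound form to the channel, had the lowest mean of the complex per kilobase over the 5 libraries, though Stt3a was lower in variation A and Dad1 in variation B. It had 36.5, 11.6 and 13.5 CPM (A1, A2, A3) against 29.3 and 30.3 CPM (B1, B2), overlapping between groups on the library total, and a log2 fold change of −0.84 ± 0.38 that was not called, or −0.30 without A1. The noncatalytic subunits Rpn1, Rpn2 and Ddost, with Stt3b, ran from −0.49 to 0.63. Across the 7 genes of this role, which serve more than 1 form of the enzyme, the log2 fold changes spanned −1.77 to 4.08. This was the widest range of the 5 roles, with Dad1 and Stt3a as its ends.

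**Figure D3:**
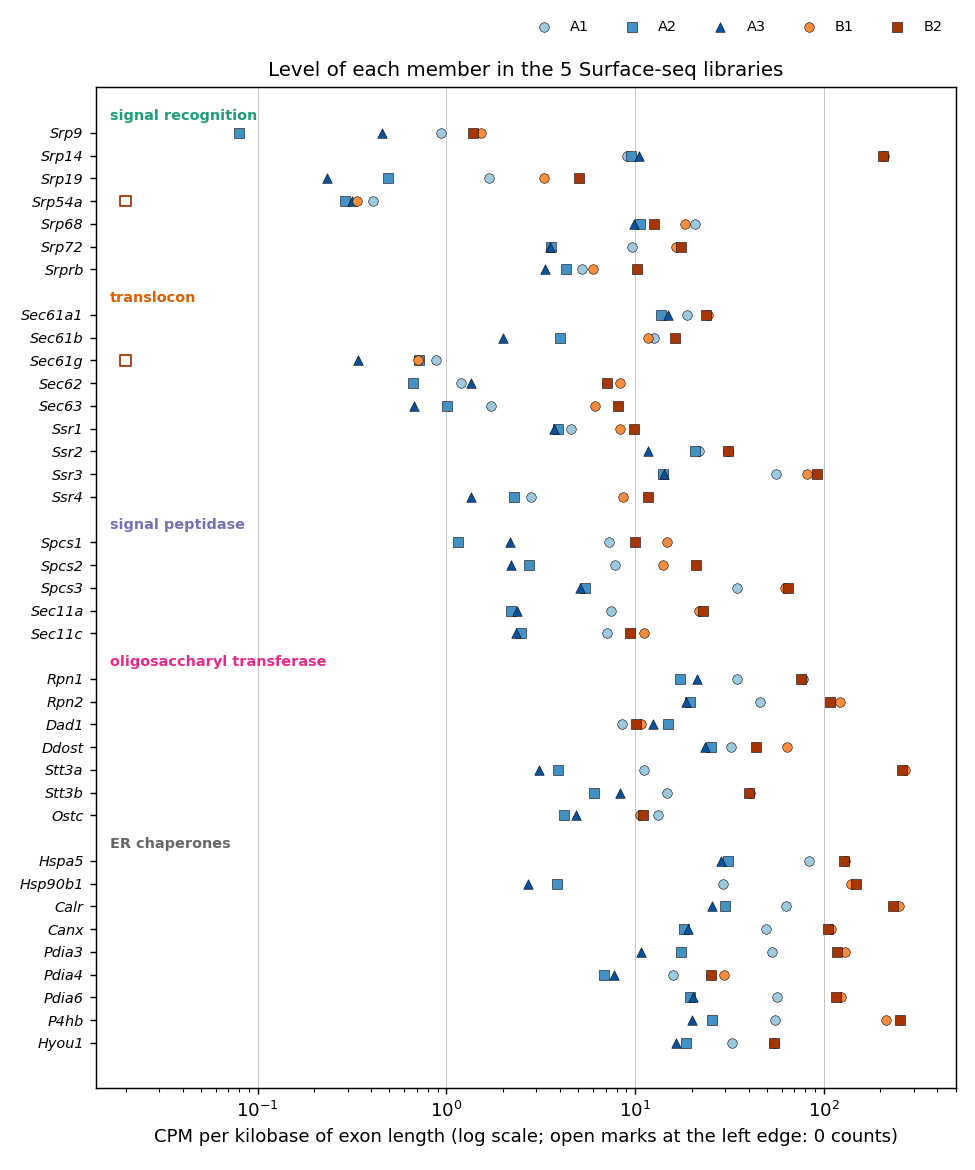
Level of each member in CPM per kilobase of exon length on a log axis, by role, with 1 mark per library (A1, A2, A3 in blue, B1, B2 in orange and brown). Open marks at the left edge are counts of 0. Marks for Stt3a and Srp14 show the widest gaps between the groups, and those of Dad1 overlap.

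In the plot of levels per kilobase, Hspa5, Calr and P4hb have the highest means in variation A, and Stt3a, Calr and P4hb in variation B. Across the 37 members, the rank correlation of mean CPM per kilobase between variation A and variation B was 0.824, a description across genes that share 5 libraries. Within variation B the ranks of CPM were nearly the same (B1 against B2, 0.988), and in variation A the value was 0.982 for A2 against A3 but 0.910 for A1 against A2. The 12 members with a coding sequence of 200 codons or fewer had a median of 6.84 CPM per kilobase in variation A and 11.6 in variation B, and the 25 longer ones 11.9 and 40.4. Their median log2 fold changes were 0.32 and 0.52, and the difference was not tested.

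Among the 9 ER chaperones and disulfide isomerases 3 were called higher (beside 11% of all genes tested) and 0 lower (beside 12.4%) by edgeR, with 0 lower at an unadjusted p under 0.05, and a median log2 fold change of 0.53. On the library total both variation B libraries were above all variation A libraries for all 9, as for 75% of all genes tested. Hsp90b1 (GRP94), the ER member of the Hsp90 family (ENSMUSG00000020048.13, chr10:86690209-86705509, minus strand, GRCm38), had 118, 15.6 and 10.9 CPM (A1, A2, A3) against 561 and 599 CPM (B1, B2). A1 was several times above A2 and A3, and both variation B libraries were above A1 on either scale (log2 fold change 2.34 ± 0.69 (SE), adjusted p = 0.0418 by edgeR's quasi-likelihood test, Benjamini-Hochberg). Without A1 the log2 fold change was 3.78, and in a test against a fold change of 1.5 the call ended. The call of Hsp90b1 ended without A2, A3, B1 or B2, with log2 fold changes of 2.02, 2.01, 2.40 and 2.27 and adjusted p values of 0.1203, 0.112, 0.134 and 0.174 by edgeR's quasi-likelihood test, Benjamini-Hochberg, and over all 19 alternatives its adjusted p ran from 2.10e-07 to 0.174. Other annotated exons cover 15.7% of its exon bases on either strand, and reads there could not be assigned.

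Calr encodes calreticulin, the lumenal lectin that binds glycoproteins with trimmed glycans (ENSMUSG00000003814.8, chr8:84841850-84846934, minus strand, GRCm38), and averaged 39.8 CPM per kilobase in variation A, under Hspa5 at 47.9, and 242 in variation B, under Stt3a. It had 183, 86.8 and 74.1 CPM (A1, A2, A3) against 725 and 669 CPM (B1, B2) (log2 fold change 1.19 ± 0.32 (SE), adjusted p = 0.0303 by edgeR's quasi-likelihood test, Benjamini-Hochberg). P4hb, the founding protein disulfide isomerase (ENSMUSG00000025130.11, chr11:120560298-120573253, minus strand, GRCm38), had 158, 73.1 and 57.3 CPM (A1, A2, A3) against 609.6 and 730.2 CPM (B1, B2) (log2 fold change 1.40 ± 0.34 (SE), adjusted p = 0.0219 by edgeR's quasi-likelihood test, Benjamini-Hochberg). For both genes the 2 variation B libraries were above all 3 variation A libraries on either scale. Both calls ended with a block on replicate number, at log2 fold changes of 1.07 and 1.24, and in a test against a fold change of 1.5. The call of Calr ended without A2, A3, B1 or B2, with log2 fold changes of 1.20, 1.11, 1.14 and 1.23 and adjusted p values of 0.130, 0.121, 0.191 and 0.191 by edgeR's quasi-likelihood test, Benjamini-Hochberg, and over all 19 alternatives its adjusted p ran from 3.23e-05 to 0.231. The call of P4hb ended without A2, A3, B1 or B2, with log2 fold changes of 1.41, 1.29, 1.53 and 1.24 and adjusted p values of 0.0962, 0.0916, 0.114 and 0.192 by edgeR's quasi-likelihood test, Benjamini-Hochberg, and over all 19 alternatives its adjusted p ran from 2.65e-05 to 0.192.

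The other 6 did not pass. Pdia3, the isomerase that works with calreticulin and calnexin, had 166, 55.3 and 33.7 CPM (A1, A2, A3) against 408 and 371 CPM (B1, B2), with both variation B libraries above variation A on either scale (log2 fold change 0.85 ± 0.45 (SE), adjusted p = 0.188 by edgeR's quasi-likelihood test, Benjamini-Hochberg), and was called higher without A1 at 1.48. Pdia4 had the lowest mean of the role per kilobase over the 5 libraries, though Hsp90b1 was lower in A2 and A3. It had 38.2, 16.4 and 18.5 CPM (A1, A2, A3) against 71.4 and 60.8 CPM (B1, B2). Its log2 fold change was 0.02 ± 0.31, or 0.36 without A1. Hspa5, Canx, Pdia6 and Hyou1 ran from −0.17 to 0.53, and Pdia6 was called higher without A1.

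Hspa5 (BiP), the lumenal Hsp70, is set against Hsp90b1 after its values were seen. It had 354, 132 and 121 CPM (A1, A2, A3) against 548 and 540.3 CPM (B1, B2), and TMM-scaled 404, 231 and 213 CPM (A1, A2, A3) against 292 and 294 CPM (B1, B2), with A1 above both variation B libraries on that scale and a log2 fold change of 0.05 ± 0.36, or 0.52 without A1, where the fold stayed under 2 and the adjusted p of 0.0242 by edgeR's quasi-likelihood test, Benjamini-Hochberg passed, in a range from 0.0242 to 0.988 over 19 alternatives. Counts of Hsp90b1 were 33.3, 11.8 and 9.03% (A1, A2, A3) against 102 and 111% (B1, B2) of those of Hspa5, higher in both variation B libraries than in any variation A library. The difference between the 2 genes was not tested.

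Promoters were searched for the ER stress element, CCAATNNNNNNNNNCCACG, on both strands from 250 bases before to 50 after the RefSeq start of each gene (GRCm38.p6). It occurred in 37 of 27025 genes with a promoter entry (0.137%) and in 5 of 29 members with one (17.2%), all 5 of them chaperones: Hspa5, Hsp90b1, Calr, Canx and Pdia6. Of these 5, Hsp90b1 and Calr were called higher in variation B and Hspa5, Canx and Pdia6 were not called. The stretches below show these matches because the 5 genes have them in common, 5′ to 3′ on the gene's strand, with the fixed bases at both ends of each match in capitals. A match is a description of letters and not a site shown to be used. Entries for Hyou1, Spcs3, Ssr2, Sec61a1, Srp68, Srp19, Ostc and Sec11c were not found.
Hsp90b1: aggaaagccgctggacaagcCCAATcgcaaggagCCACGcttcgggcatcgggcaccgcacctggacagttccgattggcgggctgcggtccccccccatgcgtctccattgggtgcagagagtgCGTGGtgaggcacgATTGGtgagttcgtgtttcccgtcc
Calr: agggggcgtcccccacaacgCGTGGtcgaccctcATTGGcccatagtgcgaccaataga
Canx: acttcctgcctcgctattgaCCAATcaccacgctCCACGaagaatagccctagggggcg
Pdia6: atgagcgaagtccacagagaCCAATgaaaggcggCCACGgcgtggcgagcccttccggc
Hspa5: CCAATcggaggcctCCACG

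Hsp90b1 (chr10:86705513-86705676, minus strand) holds 2 matches, 1 in each orientation, and Calr (chr8:84847055-84847113, minus strand) holds 1 on the strand opposite to the gene. In Canx (chr11:50325780-50325838, minus strand), Pdia6 (chr12:17266471-17266529, plus strand) and Hspa5 (chr2:34772025-34772043, plus strand) the match reads along the gene. The 5 genes had log2 fold changes from 0.05 for Hspa5 to 2.34 for Hsp90b1, within a role whose 9 members ran from −0.17 to 2.34.

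**Figure D4:**
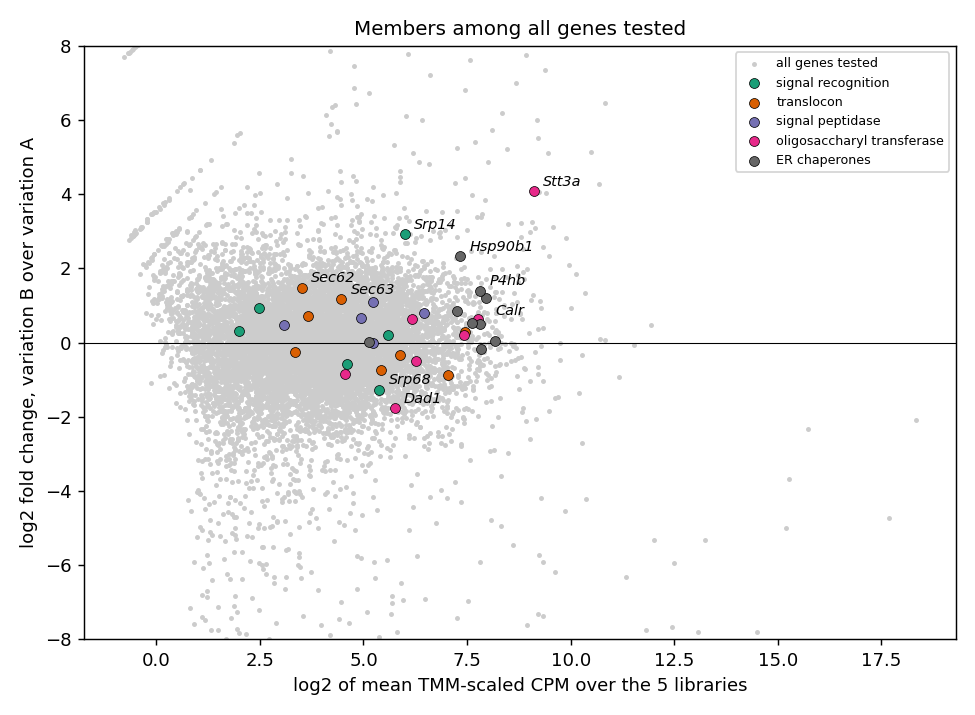
Log2 fold change of variation B over variation A against the log2 of mean TMM-scaled CPM for all genes tested (grey) and the 35 members (coloured by role), with called members named. The axis spans 8 log2 units to either side of 0, and 103 genes lie beyond it.

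The plot of all genes tested sets the members beside the whole table, and Stt3a has the largest fold change among them. Genes of the same pathways outside the 37 were taken from lists. Over 5 lists with 96 symbols, 90 genes were tested, 14 were called higher (11% of all genes) and 7 lower (12.4%), 1 of the 14 being Clgn, which had 0 counts in every variation A library, with a median log2 fold change of 0.22. All 21 calls held without A1, but without A2, A3, B1 or B2 most ended, and over the 5 fits that each left out 1 library only Trib3 and Eif2ak3 kept theirs throughout, although the direction of all 21 held in each of the 5 fits. Under library totals, however, the log2 fold changes of Get4, Bag6 and Txndc5, called lower by TMM, turned to 0.05, 0.45 and 0.48. The other lower calls shrank on that scale, to −0.02 for Mogs, −0.08 for Atf6b, −0.45 for Ost4 and −0.76 for Tram2. Ddit3, which 2 genes of the tables share, and Camlg, which matched none, were left out.

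The unfolded protein response had the largest median of these lists, 1.08 over 8 genes tested. Of these, 4 were called higher and 1 lower, beside 11% and 12.4% of all genes tested. Eif2ak3, which encodes the ER stress kinase PERK, had 37.8, 18.4 and 11.8 CPM (A1, A2, A3) against 545 and 550.2 CPM (B1, B2) (log2 fold change 3.17 ± 0.35). Atf4, the transcription factor translated when PERK is active, had 31.7, 18.7 and 19.4 CPM (A1, A2, A3) against 143 and 143 CPM (B1, B2). Trib3, a pseudokinase gene that ATF4 induces, had 2.61, 4.22 and 6.74 CPM (A1, A2, A3) against 128 and 106 CPM (B1, B2). In all 3 both variation B libraries were above all variation A libraries, with log2 fold changes of 1.17 ± 0.26 for Atf4 and 3.25 ± 0.46 for Trib3. Ppp1r15a, which encodes a phosphatase subunit that ends the response, was also called higher, at 2.77 ± 0.56. It had only 6, 16 and 0 counts (A1, A2, A3) against 1159 and 1033 (B1, B2), so the size of its fold is uncertain. Atf6b, an ER-anchored transcription factor, was called lower, at −1.63 ± 0.39, but was at −0.08 under library totals. The genes not called, named after their values were seen, were Atf6 at 0.997 ± 0.31, Xbp1 at −0.46 ± 0.31 and Ern1 at −0.30 ± 0.36 by TMM. The Ppp1r15a call ended without B1 or B2, and those of Atf4 and Atf6b without A2, A3, B1 or B2.

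Other ER folding genes gave 4 higher and 1 lower of 22 tested, beside 11% and 12.4% of all genes tested. Their median log2 fold change was 0.21. Higher were Ppib (2.01 ± 0.44), a lumenal prolyl isomerase gene, Txndc12 (1.68 ± 0.37) and Dnajb9 (2.27 ± 0.66), and Txndc5 (−1.03 ± 0.29) was lower. Dnajb9 had only 5, 3 and 1 counts (A1, A2, A3) against 196 and 504 (B1, B2), so the size of its fold is uncertain. Under library totals Txndc5 turned to 0.48, with 50.4, 45.1 and 46.3 CPM (A1, A2, A3) against 66.97 and 64.5 CPM (B1, B2). Clgn had 0 counts in A1, A2 and A3 and 302 and 249 counts in B1 and B2, which against a floor of 3 counts per variation A library is at least 4.29-fold higher per library total and at least 1.33-fold higher by TMM. The TMM bound is under 2-fold, so Clgn's place among those called higher rests on the fit alone. With Clgn at that bound the list's median was 0.21. ER-associated degradation had 3 higher and 0 lower of 15 by edgeR (1 lower at an unadjusted p under 0.05), beside the same percents, with a median of 0.39. The 3 were Os9 (1.62 ± 0.38), a lectin gene, Sel1l (1.35 ± 0.29), the adaptor of the HRD1 ligase, and Ufd1 (2.03 ± 0.35). Of these 2 lists, Ufd1 lost its call only without B2, Clgn without B1 or B2, Os9 without A2, B1 or B2, and the others without A2, A3, B1 or B2.

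Other ER entry genes had 2 higher and 3 lower of 18, beside 11% and 12.4% of all genes tested, and a median of −0.01. Tram1, which encodes a membrane protein beside the Sec61 channel, had 222, 96.2 and 96.03 CPM (A1, A2, A3) against 908 and 984 CPM (B1, B2) and was called higher at 1.37 ± 0.33, whereas its paralog Tram2 was called lower at −2.23 ± 0.52. Emc3 was higher, and Get4 and Bag6, of the tail-anchored protein route, were lower. Under library totals the log2 fold changes of Get4 and Bag6 were 0.05 and 0.45. Bag6 had 73.9, 81.1 and 88.45 CPM (A1, A2, A3) against 114.9 and 105.7 CPM (B1, B2), higher in both variation B libraries on that scale. Other N-glycosylation genes had 1 higher and 2 lower of 27, beside the same percents, with a median of 0.15. Uggt1, the folding sensor that puts glucose back on misfolded glycoproteins, was called higher at 1.73 ± 0.37, and Ost4 (−1.99 ± 0.54), a small oligosaccharyl transferase subunit like Dad1, and Mogs (−1.55 ± 0.32) were lower. With library totals Ost4 was at −0.45 and Mogs at −0.02. In both lists the calls ended without A2, A3, B1 or B2, except that Get4 kept its call without A3.

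For comparison, cytosolic chaperones and mitochondrial import genes were taken as lists of the same kinds of function outside the ER. Of 20 cytosolic chaperone genes tested, 1 was called higher and 2 lower, beside 11% and 12.4% of all genes tested, with a median log2 fold change of 0.04. Hsp90ab1, 1 of the 2 cytosolic Hsp90 genes, had 1015, 645 and 589 CPM (A1, A2, A3) against 741 and 733 CPM (B1, B2), and was called lower at −1.48 ± 0.36, with overlapping groups on the library total. The other, Hsp90aa1, named after its values were seen, went the other way, with 282, 30.6 and 38.8 CPM (A1, A2, A3) against 761 and 1432 CPM (B1, B2) and a log2 fold change of 1.99 ± 0.72 that was not called, both variation B libraries being above all variation A libraries on the TMM scale. Hspa8 was lower at −2.06 ± 0.46 and Dnajb6 higher at 1.71 ± 0.49. Of 19 mitochondrial import genes tested, 3 were higher and 3 lower, beside the same percents, with a median of −0.06. Hspa9, the mitochondrial Hsp70, had 289, 123 and 109.5 CPM (A1, A2, A3) against 1179 and 1136 CPM (B1, B2). It was called higher at 1.34 ± 0.34, as were Tomm7 and Pmpcb, and Timm50, Tomm40 and Tomm5 were called lower. Under library totals Timm50 and Tomm40 turned to 0.41 and 0.10, and Tomm5 was at −1.12. Of the calls named here, Hspa8 held without A1, A2 or A3, Tomm5 without A1 or B1, Timm50 in none of the 5 fits that left out a library, and the others only without A1. The lists were not compared by a test.

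**Figure D5:**
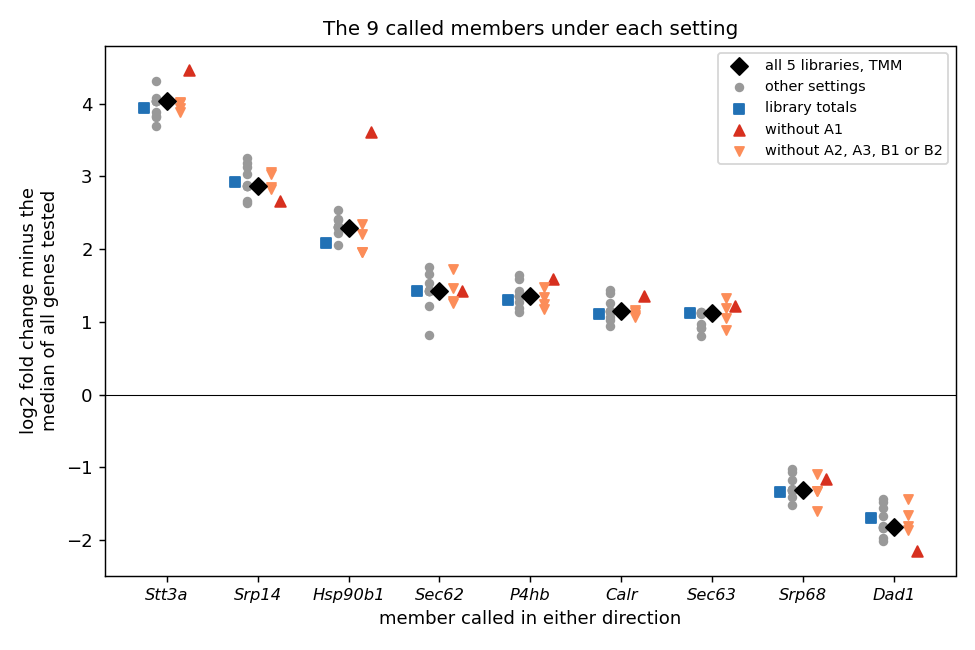
Log2 fold change of the 9 called members minus the median of all genes tested, under every setting run, with black diamonds for all 5 libraries with TMM scaling. Subtracting the median takes out the shift that a scaling makes (without it, Srp68 is at 0.17 and Dad1 at −0.20 under library totals), and the mark of Hsp90b1 without A1 is the farthest from its own diamond.

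The plot of called members across settings shows fold changes and not calls. All of the 9 but Stt3a and Srp14 lost their call in at least 1 fit that left out a library. On strand and copies, 13 of 37 members share exon bases with another gene, 12 of them with one on the other strand, and since counts were taken without regard to strand, reads that fell on such shared bases went uncounted whichever gene they came from. Of the 9 called members 7 have no such overlap, Sec62 and Hsp90b1 being the exceptions. For 10 members, Srp9, Srp54a, Srprb, Sec61a1, Sec61b, Sec61g, Sec62, Spcs1, Sec11a and Hsp90b1, more than 10% of the longest coding transcript has a near-identical match in another gene, overlapping genes included, and their values are uncertain to that extent.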

How the data were processed

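The authors' counts of reads per gene were deposited for each of the 5 libraries, whole and unscaled, and all values here start from them. According to the submitters' processing notes the tools were Trimmomatic 0.36, STAR 2.7.3a and featureCounts 1.6.4, with GRCm38 and GENCODE M24 exons. Strand was ignored, and reads with several alignments or over several genes were left out. Symbols came from GENCODE M21 by identifier (55144 of 55385 genes). The members and the gene lists were chosen with earlier results of these data known.

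CPM was taken per library total, and CPM per kilobase over the union of exons. Variation B was fitted against variation A on the whole table in R 4.3.3 by quasi-likelihood (glmQLFit and glmQLFTest of edgeR 4.0.16, after filterByExpr and TMM, with Benjamini-Hochberg over all genes), a procedure tested on simulated data. Standard errors are approximate, the log2 fold change over the root of the F statistic. DESeq2 1.42.0 was an alternative, beside other scalings, filters, thresholds, depths, a length trend, a replicate block and leaving out each library. Protein-coding shares without A1 and fold changes relative to the median of all genes under library totals were added after seeing the data, as were role shares without Stt3a and transcript length for Stt3a and Stt3b. Members got values per library if called, if highest or lowest of their role in mean CPM per kilobase, or if among the 4 largest changes not called, and genes of other lists if called, at most 5 a list. Lists covered other ER entry, other N-glycosylation, other ER folding, ER-associated degradation, the unfolded protein response, cytosolic chaperones, mitochondrial import, SRP RNA and T-cell, B-cell, myeloid and erythroid markers. Promoters are from RefSeq GRCm38.p6 (29 of 37 members), and near-identical copies (98% identity over at least 30 bases) were found with blastn 2.17.0 in GENCODE M21 transcripts. Wilson intervals came from statsmodels 0.14.6 under Python 3.11.15. Srp9, Srp72, Stt3b and Hspa5 were described after their values were seen. No pair of libraries agreed within sampling noise.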

Additional observations from a re-analysis of the deposited data

How the results depend on the processing

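With TMM, 7 members and 1135 genes were called higher and 2 members and 1276 genes lower. Library totals gave 21 and 5668 higher and 0 and 301 lower, with a member median of 1.83 in place of 0.47. The test against a fold change of 1.5 gave 2 members and 602 genes higher and 1 and 738 lower, and a minimum of 10 counts in every library 592 genes higher and 722 lower of 4599 tested. Without a filter on low counts, and with a trend with gene length removed, 1 member was lower, Dad1. Leaving out each library in turn gave 2 to 16 members higher, 0 to 2 lower, 161 to 2526 genes higher and 137 to 1821 lower, with member medians from 0.12 to 0.94.

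The replicate block gave 4 members higher and 2 lower, and 761 and 813 genes. It ended the calls of Calr, P4hb and Sec63 (adjusted p 0.231, 0.152 and 0.197 by edgeR's quasi-likelihood test, Benjamini-Hochberg). Their log2 fold changes were then 1.07, 1.24 and 1.02, so that the folds stayed above 2. With the length trend removed as well, the block gave 4 and 1 members and 745 and 823 genes, and the call of Srp68 ended too. Libraries 1 and 2 share only a number across variations: deviations from the group means correlated at −0.10 for A1 and B1 and −0.03 for A2 and B2 across genes.

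The share on the members had means of 0.201% and 0.964% in variations A and B, 0.688% and 1.503% of protein-coding counts, and 0.424% and 1.29% without ribosomal RNA and mitochondrial genes. Members with at least 10 counts in every library numbered 28, 28 at equal depth and 32 with CPM above 2. Equal depth matched total counts only, so that protein-coding depth still differed between the variations.

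Among the named members' log2 fold changes, 285 values kept their direction and call, 46 lost the call, 12 gained one and 13 changed sign. Those that kept the call include the setting with adjusted p alone, which reuses the main fit and could not end a call. Under library totals relative to the median of all genes, which has no test, the side of a 2-fold change stands for the call, and there 1 value crossed it, Sec11a at 0.98. Under library totals Srp68 was at 0.17, Sec61a1 at 0.60, Ostc at 0.54 and Sec11c at 1.37. Sec11c, near 0, was also at 0.19 without a filter, 0.20 with at least 10 counts in every library, 0.49 without A1 and 0.09 without B2, in a range from −0.141 to 0.49 over the libraries left out. Pdia4, near 0 as well, was at −0.11 with upper-quartile factors, −0.18 at equal depth, −0.06 without A2, −0.094 without B1 (up to 0.359, without A1) and −0.063 under library totals relative to the median of all genes, an alternative chosen after seeing the data. The cause of these changes was not tested. Variation A depth, down to 1187117 counts in A3, limits the low members.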
